A study of Saccharomyces cerevisiae with 14 samples.

Results

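The 45 genes described here act in meiosis and sporulation, the pathway by which a diploid yeast cell makes haploid nuclei and packs them into spores. They were taken by name from the probe annotation of the Affymetrix Yeast 2.0 array, on which each of the 45 is read by 1 probe set, out of 5449 Saccharomyces cerevisiae genes with a named probe set. They fall into 15 early, 24 middle and 6 late genes, after the order in which they are switched on in sporulating cells. In that programme Ime1, an activator made mainly when a and alpha information are both present and nutrients are short, works through the DNA-binding protein Ume6 to turn on the early genes of recombination and chromosome pairing. Ime2 kinase and the activator Ndt80 then turn on the middle genes of the meiotic divisions and spore formation, which Sum1 and the deacetylase Hst1 otherwise hold off, and the late genes build the outer spore wall. In haploid cells growing vegetatively the pathway is off, and Rme1 represses IME1.

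The study compared yeast strains altered in the enzymes that place and remove methyl groups on lysine 4 of histone H3: Set1, the methyltransferase, and Jhd2, a demethylase. Cultures started at an OD600 of 0.2 were grown at 30 °C for 3 to 5 hours to 0.6 to 0.7, and total RNA was hybridised to 14 arrays, in 3 experiments with a wild type each. All 7 wild-type arrays carry the same genotype in the labels, with his3∆1, le2∆0 (so spelled), lys2∆0 and ura3∆0 and the marks TRP+, Met15+ and ADE+. The first experiment set 2 arrays of a set1 deletion against 2 wild-type arrays, and the deletion strain is listed as set1::KanMx with his3-1, leu2-0, met15-0 and ura3-0. The second set 3 arrays of jhd2::KanMX, with the auxotrophies of its wild type, against 3 wild-type arrays. The third set 2 arrays of a strain that overexpresses JHD2 in a jhd2 deletion, written (jhd2∆::KanMx)+(JHD2 O/E) with his3-1, leu2-0, lys2-0 and ura3-0, against 2 wild-type arrays. The promoter of the overexpression construct, the number of clones behind each strain and the growth medium do not appear in these labels.

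Expression is given as the authors' MAS5 intensity of each probe set, called signal below, which is linear and scaled to a common mean on every array. The Schizosaccharomyces pombe probe sets on the same arrays gave the background: a gene was counted as above background on an array when it was brighter than 95% of those probe sets, which was 7.28 to 16.7. The targeted genes followed the labels. SET1 read 1.13 and 3.31 in the set1 deletion and at least 395 on the other arrays, and JHD2 read 0.23 to 3.41 in the jhd2 deletion and 5207 and 6237 in the overexpression strain. All 7 haploid-specific genes, which a diploid a/alpha cell represses, were above background on every array, with RME1 at 941 to 2128. The summed signal of the 7 a-specific genes was 10214 to 11252 in the SET1 experiment and 236 to 556 in the other experiments, whereas that of the 5 alpha-specific genes was 533 to 704 against 15423 to 23275. The wild type of the SET1 experiment therefore does not share the mating-type markers of the other wild types, although the labels give all of them 1 genotype. The set1 deletion differed from its own wild type in more than SET1: MET17 (MET15) read 5.07 and 1.58 in the deletion and 3528 and 3514 in the wild type, and LYS2 read 1307 and 1567 against 10.0 and 2.94, so loss of Set1 and these markers cannot be told apart. LEU2 was at or above 6823 in the overexpression experiment, its wild type included, and at or below 46.2 elsewhere. The ratio of 3′ to 5′ signal over 17 control pairs, a measure of RNA quality, was 0.40 to 0.65 on the log2 scale on most arrays. It was 1.03 and 1.34 in the overexpression strain and 1.32 and 1.08 on the replicate 3 arrays of the JHD2 experiment (wild type and deletion). The part of these differences in the results below was not tested.

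Most of the genes were detected above background although the cells were not sporulating, with a low signal. Between 34 and 45 of the 45 exceeded the background on an array, and their median signal per array was 36.9 to 80.8. Of all tested genes, which had to pass a filter on mean signal, 98.0% to 99.9% exceeded it. The median signal of those genes was 538 to 664. In the set1 deletion all 45 were above background on both arrays. The number above background on every array of the group was 42 in the wild type of the SET1 experiment, 37 in that of the JHD2 experiment, 33 in the jhd2 deletion, 39 in the wild type of the overexpression experiment and 42 in the overexpression strain. The median S. pombe signal was 3.72 and 3.07 on replicates 1 and 2 of the jhd2 deletion and 1.86 to 2.67 on the other arrays. Signal in bulk RNA does not tell a few cells that express a gene strongly from many that express it weakly. SPS2, a cell-wall protein gene of the middle class, was below background on every array of the JHD2 and overexpression experiments, at 3.3 to 10.7. SPO19, a middle gene for a prospore membrane protein, was the 1 member whose mean signal did not pass the filter for testing, and its signals ranged from 0.4 to 33.3.

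**Figure D1:**
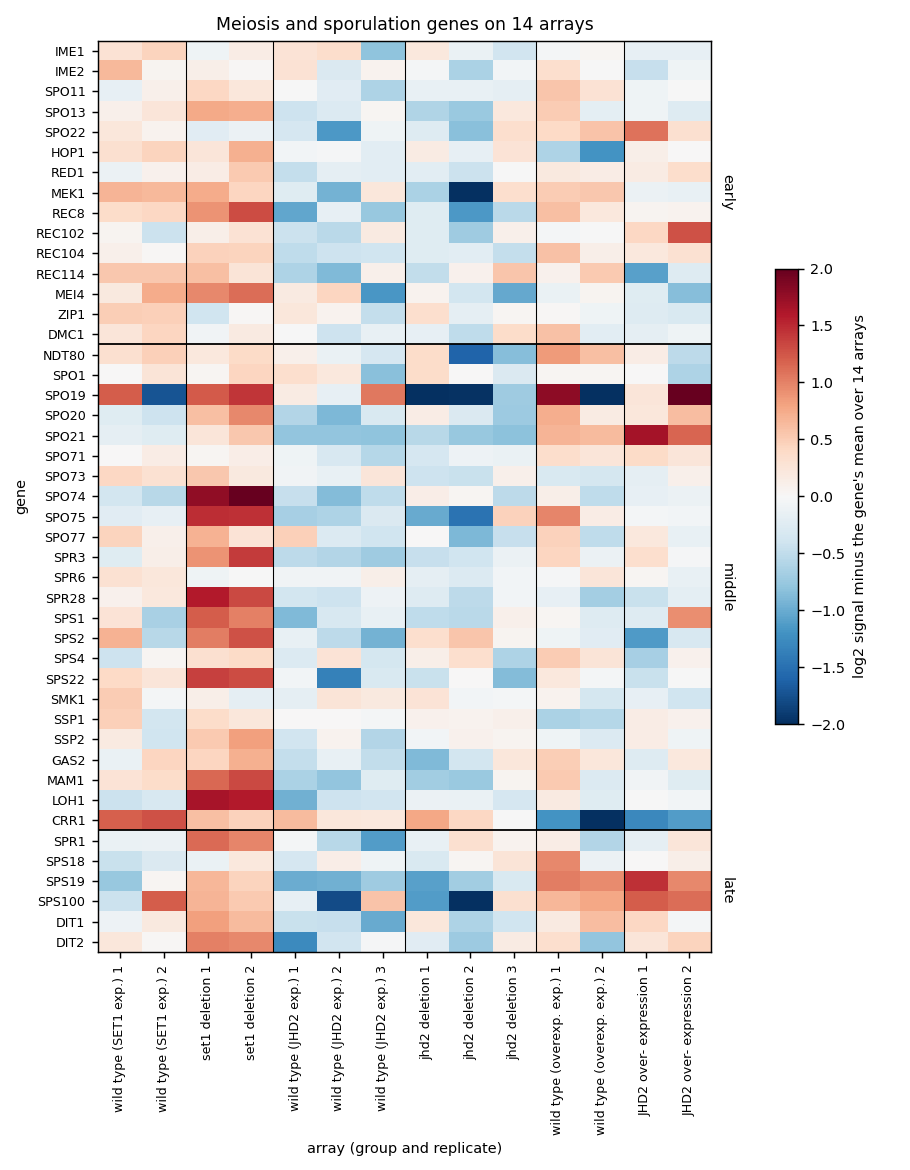
Log2 signal of each of the 45 genes (rows, by class) minus that gene's own mean over the 14 arrays (columns, by group and replicate); the colour scale ends at 2 and -2. The 2 arrays of the set1 deletion hold the highest values for many middle and late genes, 16 of the 45 being higher there than on all 12 other arrays.

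The set1 deletion was the group in which the genes most often had their highest mean: 25 of the 45, made up of 16 of the 24 middle, 3 of the 6 late and 6 of the 15 early genes. For 9 more the highest mean was in the wild type of the same experiment. The mean was lowest in the set1 deletion in no case, and lowest in the wild type of the JHD2 experiment for 21 genes. This ranking sets different experiments beside each other, and its share over all tested genes was not taken. For 16 members, all of them tested, both arrays of the set1 deletion lay above all 12 other arrays, which was so for 4.23% of the 5415 tested genes. Of these 16, 10 were middle, 3 late and 3 early. One of them, SPS2, is the dimmest tested member and was above background on no array outside the SET1 experiment. Without replicate 2 of the set1 deletion, 22 rather than 23 middle genes passed the filter for testing. The place of SPS2 in this count and in the class counts below thus rests in part on the strain where it is high. No member lay below all other arrays in this strain, against 4.49% of tested genes. In the jhd2 deletion no member stood above or below all other arrays (0.259% and 0.536% of tested genes).

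The first comparison asked what loss of Set1 did to the genes in vegetative cells. Spore genes of the middle class passed the test in 2 cases, SPO74 and LOH1, both higher in the deletion. SPO74 encodes a component of the meiotic outer plaque, the face of the spindle pole body on which the prospore membrane grows. Its signal was 47.6 and 55.9 in the deletion and 10.8 and 9.5 in the wild type. The wild-type values sit at the background of their arrays, whereas both deletion values lie far above it, and on the 12 arrays outside the deletion SPO74 stayed between 7.63 and 15.3. The log2 change was 2.35 ± 0.40 (SE), whose size rests on wild-type values at the background, with an adjusted p of 0.0304 in the limma fit over all 14 arrays and all tested genes. LOH1, which acts in assembly of the outer spore wall, read 60.8 and 58.4 in the deletion and 14.4 and 15.5 in the wild type. Its groups do not overlap either, and its signal on all other arrays was 9.96 to 22.0. The log2 change was 1.99 ± 0.34, or 3.98-fold, with an adjusted p of 0.0304 in limma. These 2 of 44 tested members compare with 0.166% of all tested genes called higher. limma called 0 members lower, against 0.0923% of tested genes, with 1 at an unadjusted p under 0.05.

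Both calls are close to the threshold. With the arrays of the SET1 experiment alone, the adjusted p in limma was 0.508 for both genes. After quantile normalization SPO74 had a log2 change of 2.00 (adjusted p 0.0624) and LOH1 of 1.67 (0.118). The count of called members was 0 without any 1 of the 4 arrays of this experiment, and also without replicate 2 of the JHD2-experiment wild type, replicate 1 of the jhd2 deletion or either overexpression array, and it was 1 without replicate 1 of the JHD2-experiment wild type. Leaving out 1 array at a time gave log2 changes of 2.23 to 2.46 for SPO74 and 1.94 to 2.04 for LOH1. On the log2(value + 32) scale, which shrinks changes of low signals, the changes were 0.99 and 0.96, both still called (adjusted p 0.00314 in limma).

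**Figure D2:**
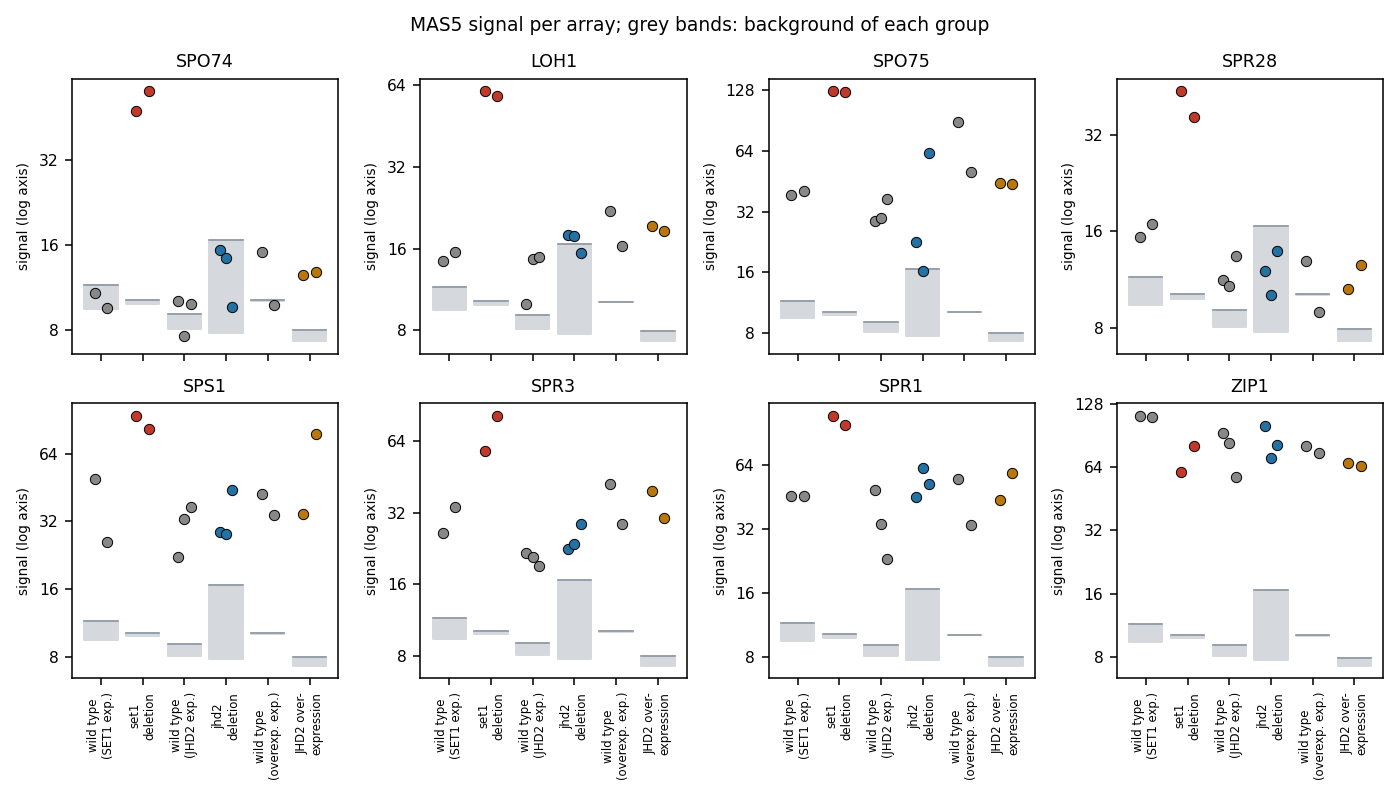
Signal (log axis) of 8 genes on each of the 14 arrays by group: points are arrays, and grey bands run from the lowest to the highest background level (95th percentile of S. pombe probe sets) among the arrays of the group. SPO74 and LOH1 stand at 47.6 to 60.8 in the set1 deletion and at or below 22.0 elsewhere, while ZIP1 is lower in the deletion (60.3 and 80.8) than in its wild type (112 and 111).

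SPO74 is 1 of 12 tested genes for forming the spore membrane, and it alone of these passed the test. This grouping by role, like those below, was made after values were seen, so a shared direction within it is only a description. All 12 had a positive log2 change, from 0.02 to 2.35, with a median of 0.86 beside 0.02 for all tested genes. For 7 of them, SPO74 included, both deletion arrays lay above both wild-type arrays, as did those of 19.4% of all tested genes. SPO75, a middle gene needed for spore formation, read 126 and 125 in the deletion and 38.8 and 40.6 in the wild type. The log2 change was 1.66 ± 0.50 and the adjusted p in limma 0.305, a change close in size to that of LOH1 with a wider error. That error takes in the spread of all 6 groups. The SD of log2 signal was 0.01 in the deletion and 0.05 in its wild type. It was 1.01 in the jhd2 deletion, 0.58 in the overexpression wild type and at most 0.20 in the other groups. The sporulation septins SPR28 and SPR3, which line the growing membrane, had log2 changes of 1.31 ± 0.37 and 1.21 ± 0.32 (adjusted p 0.267 and 0.216 in limma). SPR28 read 43.6 and 36.4 against 15.4 and 16.9, and SPR3 read 58.3 and 81.8 against 26.4 and 33.7. SPS1, a kinase of spore formation, read 94.5 and 82.5 in the deletion and 49.4 and 26.0 in the wild type, whose replicates lay far apart (log2 change 1.30 ± 0.44, adjusted p 0.364 in limma). SPO71 and SPO73, both of prospore membrane growth, had log2 changes of 0.02 ± 0.19 and 0.02 ± 0.22, the smallest of the group.

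Among the 11 spore wall genes, 9 were higher and 2 lower, with a median log2 change of 0.79. SPR1, a late gene for a glucanase of the spore, read 109 and 98.4 in the deletion and 45.5 and 45.7 in the wild type, and lay between 23.0 and 61.9 on all arrays outside the deletion. Its log2 change of 1.18 ± 0.36 did not pass the test (adjusted p 0.305 in limma). DIT1 and DIT2, the enzymes that make the dityrosine precursors of the outermost layer, had log2 changes of 0.68 ± 0.34 and 0.85 ± 0.53, both without overlap between the groups. CRR1, a putative glycosidase of the spore wall, was lower in both deletion arrays (113 and 103 against 171 and 180), with a log2 change of -0.70 ± 0.33 (adjusted p 0.612 in limma). The other lower gene was SMK1, a kinase of spore wall assembly, at -0.27 ± 0.30 with overlapping groups.

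The early genes lay on both sides of 0. Of the 15 tested, 8 were higher and 7 lower, with a median log2 change of 0.10, which turned to -0.18 after quantile normalization. ZIP1, the central element of the synaptonemal complex, which holds paired chromosomes together, had the largest negative change of the class at -0.68 ± 0.27 (adjusted p 0.485 in limma). REC8, the meiotic cohesin subunit, had the largest positive one at 0.70 ± 0.38 (adjusted p 0.694), with signals of 52.8 and 70.0 against 36.7 and 38.0. The 7 recombination genes, 4 higher and 3 lower, lay between -0.28 and 0.57. None of the activators of the cascade had a positive change or passed the test. IME1 read 181 and 213 in the deletion and 233 and 262 in the wild type (log2 change -0.33 ± 0.33). IME2 read 127 and 119 against 183 and 122 (-0.28 ± 0.29), and without replicate 1 of the wild type its change was 0.01. NDT80, the activator of middle genes, read 81.6 and 92.2 against 88.5 and 98.9, with overlapping groups and a log2 change of -0.11 ± 0.48.

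By class, the median log2 change in the set1 deletion was 0.10 for early, 0.61 for middle and 0.77 for late genes, beside 0.02 for all tested genes and -0.06 for the S. pombe probe sets. The middle median lay between 0.33 and 0.76, and the late median between 0.40 and 0.93, over the 26 alternative settings. Many of these settings could not test the medians. Array weights, the replicate block and a fit without the intensity trend left both unchanged. Leaving out arrays of the other experiments can move them only through the filter on dim genes. Of the 44 tested members, 33 were higher and 11 lower. The arrays of the groups did not overlap for 25 higher and 6 lower members, that is 13 middle, 7 early and 5 late against 2 middle and 4 early. Among all tested genes 19.4% were higher and 17.0% lower without overlap. At an unadjusted p under 0.05 there were 13 higher members and 1 lower (ZIP1), against 4.47% and 3.86% of tested genes. Taken by replicate number, the median of the members was 0.36 in pair 1 (33 of 44 higher) and 0.42 in pair 2 (30 of 44 higher).

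**Figure D3:**
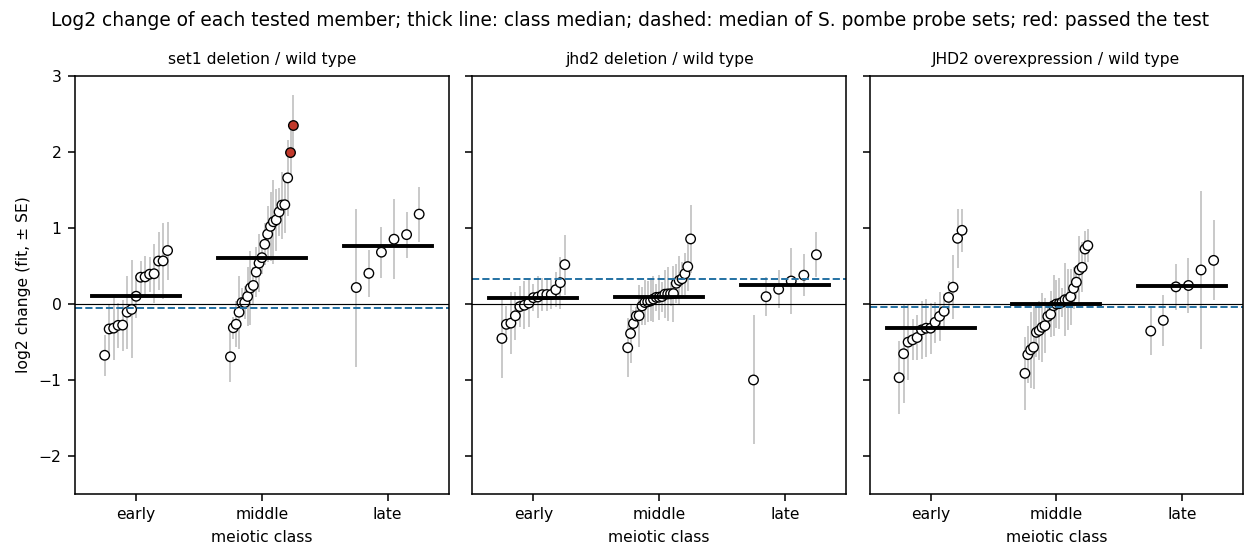
Log2 change with its standard error for each tested gene (points) by class, in the 3 altered strains against their own wild types; the thick lines are class medians and the dashed lines the median of the S. pombe probe sets. In the set1 deletion the middle and late medians are 0.61 and 0.77 and 2 middle genes passed the test (red), while in the other strains no gene did.

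None of the repressors that act on these genes passed the test in the set1 deletion. RME1 had a log2 change of -0.07 ± 0.16, SUM1 of 0.15 ± 0.20 and HST1 of 0.10 ± 0.23. UME6 was at -0.44 ± 0.34 (adjusted p 0.84 in limma). Of 21 regulators of entry into meiosis and of early or middle genes, 7 were higher and 14 lower, with a median of -0.12. limma called 0 of them, and 3, all lower, had an unadjusted p under 0.05 (3.86% of tested genes were lower at that level). A further 37 meiotic genes outside the 45, of which 32 were tested, had 26 higher and 6 lower and a median of 0.41. limma called 0 of the 32 (0.166% of tested genes were called higher), and 9, all higher, had an unadjusted p under 0.05 (4.47% of tested genes were higher at that level). Picked out after its values were seen, CDA1, a chitin deacetylase of the spore wall, had the smallest adjusted p of the 32, at 101 ± 6.87 against 35.1 ± 6.99 (SD, n = 2 each) and an adjusted p of 0.0503 in limma.

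Loss of Jhd2, the opposing enzyme, left the genes without a single call. Of the 44 tested members 31 were higher and 13 lower, with a median log2 change of 0.09, beside -0.04 for all tested genes and 0.32 for the S. pombe probe sets, whose own signal was raised on 2 of the 3 deletion arrays. limma called 0 members (0.0369% of tested genes were called), and 1, SPR1, was higher at an unadjusted p under 0.05, against 1.29% of tested genes. The class medians were 0.08 for early, 0.09 for middle and 0.25 for late genes. By pair the median was 0.08, -0.12 and 0.20, and after quantile normalization it was -0.06 with 18 of 44 higher, so its direction rests on the scaling and on the pair.

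SPR1 read 45.2, 61.9 and 52.1 in the jhd2 deletion and 48.6, 33.9 and 23.0 in its wild type, where the lowest deletion array lies below the highest wild-type array (log2 change 0.65 ± 0.30, adjusted p 1 in limma). There were 4 members higher with no overlap between the 3 deletion and 3 wild-type arrays and 0 were lower, against 1.22% and 3.56% of tested genes. LOH1 was one, at 18.0, 17.8 and 15.5 against 10.0, 14.7 and 14.9 (0.40 ± 0.27). SPR3, with 22.6, 23.6 and 28.7 against 21.8, 20.9 and 19.1, was another (0.27 ± 0.26). Both changed sign after quantile normalization, to -0.07 and -0.13. SSP1, a coat protein at the leading edge of the prospore membrane, differed by less, at 113, 112 and 114 against 107, 107 and 103 (0.10 ± 0.20). SPS2, the last of the 4, was below background on all 6 arrays.

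The activators were not called in the jhd2 deletion either. IME1 read 222, 175 and 147 against 230, 243 and 110 (-0.04 ± 0.27), the replicate 3 array being the lowest in both strains. IME2 had a log2 change of -0.27 ± 0.24. NDT80 read 90.8, 23.3 and 39.0 against 76.1, 64.5 and 55.8, and its log2 change of -0.58 ± 0.39 was 0.01 when arrays were weighted by quality. The recombination gene MEI4 followed the replicate number too, at 24.2 and 21.9 on the replicate 3 arrays and between 38.1 and 65.7 on the others of this experiment. Of the 32 tested further meiotic genes 18 were higher and 14 lower, with a median of 0.03. limma called 0 of them, and 2, both higher, had an unadjusted p under 0.05 (1.29% of tested genes were higher at that level).

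Overexpression of JHD2 gave 0 calls among the 44 tested members in limma, against 0.517% of tested genes, with 4 higher at an unadjusted p under 0.05 (8.27% of tested genes). Of the members 19 were higher and 25 lower, with a median log2 change of -0.12 beside 0.00 for all tested genes. The arrays did not overlap for 6 higher and 14 lower members, compared with 31.1% and 31.9% of tested genes, so that separation of 2 arrays from 2 was common in this experiment. The early genes had a median of -0.32, with 4 higher and 11 lower, the middle genes one of -0.00 and the late genes one of 0.23. After quantile normalization these became 0.18, 0.40 and 0.51, with 33 of 44 members higher, and the median over all members was 0.11 without replicate 1 of the wild type. The 3′ to 5′ ratio also differed between the strains here, and its part in these shifts was not tested.

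The 4 genes with an unadjusted p under 0.05 were all higher in the overexpression strain. SPO21, a further component of the meiotic outer plaque, read 265 and 188 against 133 and 129, above its level on all other arrays (as were 13.2% of tested genes in this strain), with a log2 change of 0.77 ± 0.22 (adjusted p 0.121 in limma). HOP1, a protein of the meiotic chromosome axis, read 51.8 and 47.8 against 31.0 and 20.8 (0.97 ± 0.28, adjusted p 0.122). Its wild-type values there were the lowest of all 14 arrays, while the overexpression values fell within the 41.3 to 78.2 seen elsewhere. SSP1 showed the same arrangement, at 118 and 113 against 68.8 and 71.4 (0.72 ± 0.24, adjusted p 0.159), with all arrays outside this wild type between 82.2 and 148. REC102, of the complex that makes meiotic DNA breaks with Spo11, read 45.4 and 82.4 against 33.3 and 33.9 (0.86 ± 0.39, adjusted p 0.249).

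On the other side, NDT80 read 78.1 and 49.3 in the overexpression strain and 127 and 107 in its wild type, a log2 change of -0.91 ± 0.48 that did not pass the test. That wild type had the highest NDT80 signals of all 14 arrays. REC114, a partner of Mei4 in break formation, read 7.1 and 12.7 against 16.0 and 21.8, near the background (-0.97 ± 0.48). IME1 was at 171 on both arrays against 187 and 197 (-0.16 ± 0.33), and IME2 at 84.7 and 110 against 148 and 117 (-0.44 ± 0.29). UME6 had a log2 change of 0.89 ± 0.34 (adjusted p 0.197 in limma). The 32 tested further meiotic genes had 12 higher and 20 lower, a median of -0.30 and 0 calls in limma. At an unadjusted p under 0.05 there were 5 higher and 4 lower, against 448 and 601 of the 5415 tested genes.

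**Figure D4:**
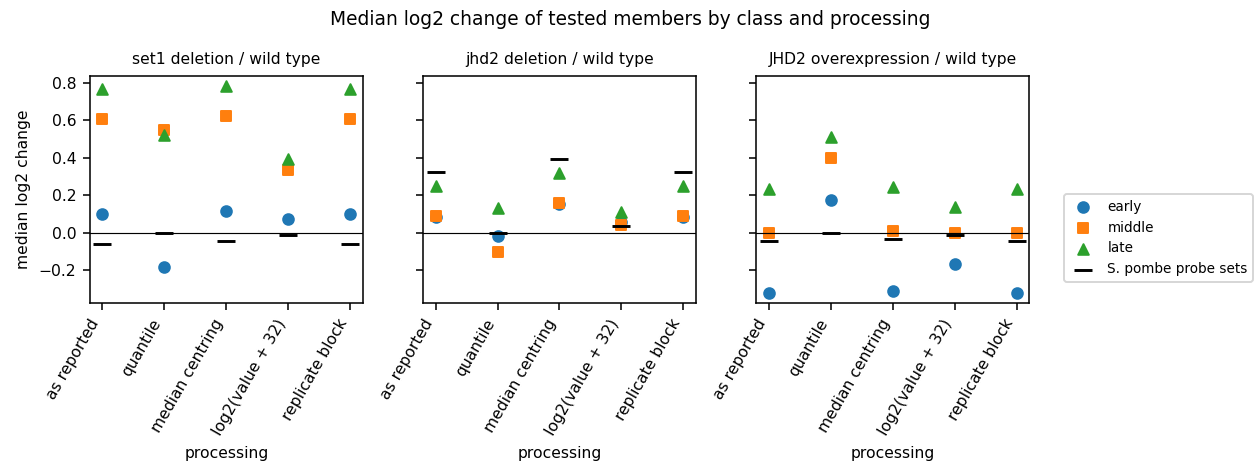
Median log2 change of the tested early, middle and late genes (symbols) and of the S. pombe probe sets (bars) in each altered strain, under 5 ways of processing. The middle and late medians of the set1 deletion lie above 0 in all 5, whereas the early median of the set1 deletion, the early and middle medians of the jhd2 deletion and those of the overexpression strain change sign after quantile normalization. The replicate block leaves every median as reported, and median centring shifts all genes of a comparison alike, so neither is a separate check.

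Whether the altered strains differed in their effect was tested on the differences between their changes. limma called 0 members in all 3 of these tests (0.0739%, 0.259% and 0.0923% of tested genes). At an unadjusted p under 0.05 there were 6 for the set1 against the jhd2 deletion, 9 for the set1 deletion against the overexpression and 2 for the jhd2 deletion against the overexpression, where 4.56%, 12.7% and 11.7% of tested genes had one. SPO74 changed by 1.86 ± 0.51 more on the log2 scale in the set1 than in the jhd2 deletion (adjusted p 0.589) and by 2.29 ± 0.56 more than under overexpression (0.143). For LOH1 the differences were 1.60 ± 0.43 (0.577) and 1.99 ± 0.48 (0.143). A change in the set1 deletion strain that the other strains lack was therefore not shown for any single member in the main fit.

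The largest log2 change of any tested member in the fits lay between wild types. CRR1 read 32.6 and 16.5 in the wild type of the overexpression experiment, 171 and 180 in that of the SET1 experiment, and 115, 87.7 and 86.4 in that of the JHD2 experiment. The 3 groups do not overlap. The overexpression wild type was lower by a log2 change of -2.92 ± 0.33 than the SET1-experiment wild type (adjusted p 0.000154 in limma) and by -2.04 ± 0.30 than the JHD2-experiment wild type (0.00103). The overexpression strain, at 30.4 and 34.5, was as low as its own wild type. SPS19, a late gene for a peroxisomal dienoyl-CoA reductase, ran the other way, at 248 and 234 against 72.5 and 125 and against 61.3, 62.7 and 74.6. It was higher in the overexpression wild type by 1.34 ± 0.30 (adjusted p 0.0218 in limma) and 1.87 ± 0.28 (0.00103).

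SPO21 was also higher in the overexpression wild type, by 0.86 ± 0.22 against the SET1-experiment wild type (adjusted p 0.0377 in limma) and by 1.44 ± 0.20 against the JHD2-experiment wild type (0.000708). HOP1 was lower than in the SET1-experiment wild type by -1.28 ± 0.28 (0.0188). These 4 of 44 compare with 8.11% of tested genes called between those wild types. Against the JHD2-experiment wild type 6 members were called, where 16.3% of tested genes were, so neither count stands far from its background. The further calls were REC104, of the break-forming complex (0.79 ± 0.21, adjusted p 0.0248), SPO71 (0.61 ± 0.17, 0.033) and DIT1 (1.04 ± 0.31, 0.0378). After quantile normalization these 3 fell to 0.06, 0.18 and 0.25 and were no longer called, and none of them was called without replicate 1 of the overexpression wild type. The calls of CRR1 in both comparisons, and of SPO21 and SPS19 against the JHD2-experiment wild type, held in all 27 alternatives. Against the SET1-experiment wild type, the adjusted p in limma reached 0.108 for HOP1 without replicate 2 of the overexpression wild type, and 0.157 for SPS19 and 0.219 for SPO21 without its replicate 1. HOP1 and SPO21 were also not called without either array of the SET1-experiment wild type, nor SPS19 without its replicate 1. SPO21 lost this call in 13 of the 27 alternatives, among them quantile normalization (0.123), median centring (0.0759) and array weights (0.0705), and SPS19 lost it with quantile normalization (0.0761). Against the SET1-experiment wild type, strain background, mating type, LEU2 and experiment cannot be told apart. The overexpression and JHD2-experiment wild types both expressed the alpha-specific genes, and between them strain background, LEU2 and experiment cannot be told apart.

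**Figure D5:**
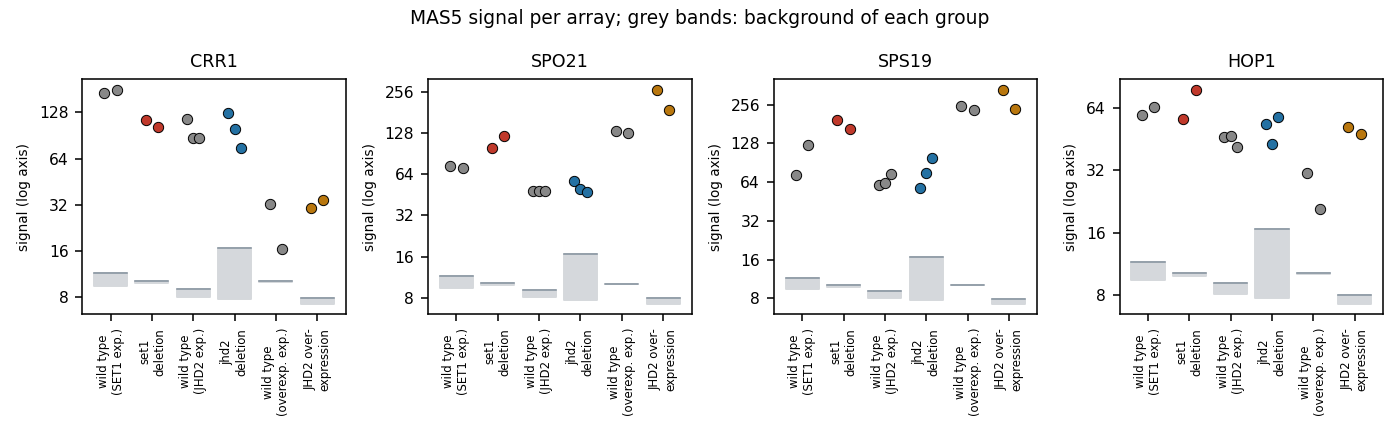
Signal (log axis) of CRR1, SPO21, SPS19 and HOP1 on each of the 14 arrays by group: points are arrays, and grey bands run from the lowest to the highest background level (95th percentile of S. pombe probe sets) among the arrays of the group. CRR1 is at 16.5 to 34.5 on the 4 arrays of the overexpression experiment and at or above 74.5 elsewhere, and SPS19 is at or above 234 on those 4 arrays.

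The wild type of the JHD2 experiment had lower signals than that of the SET1 experiment for 42 of the 44 tested members, all 15 early genes included, with a median log2 change of -0.45 beside 0.00 for all tested genes and -0.18 for the S. pombe probe sets. limma called 0 of them (0.388% of tested genes were called). At an unadjusted p under 0.05 there were 9, all lower (6.09% of tested genes). The arrays did not overlap for 24 lower members, against 12.9% of tested genes.

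Of the 45 genes, 4 pairs are direct neighbours in the RefSeq gene order. DIT1 and DIT2, SPS18 and SPS19, and SPO22 and HOP1 are transcribed away from each other from a shared intergenic stretch, and SPS1 and SPS2 lie in tandem. In the set1 deletion the log2 changes were 0.68 and 0.85 for DIT1 and DIT2 and 1.30 and 1.08 for SPS1 and SPS2. They were 0.40 and 0.91 for SPS18 and SPS19, and -0.32 and 0.10 for SPO22 and HOP1. An example picked after values were seen is the overexpression wild type against that of the JHD2 experiment. HOP1 had a log2 change of -0.81 ± 0.26 there and SPO22, which acts in crossover formation, one of 1.01 ± 0.38. Neither was called (adjusted p 0.0505 and 0.0894 in limma). SPS19 was called there at 1.87 ± 0.28, and SPS18 was also higher, at 0.52 ± 0.29. Differences within a pair were not tested.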

How the data were processed

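Total RNA from 14 yeast cultures was hybridised to Affymetrix Yeast 2.0 arrays, and the labels call the replicates biological. The authors deposited linear MAS5 intensity values (MAS5 per the submitters' processing notes, version not given in the sources used here). Without the top and bottom 2% of probe sets, array means were 500.2 to 500.3, so the arrays had been scaled alike. Precision is limited by the number of arrays.

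The array annotation used here names a single S. cerevisiae gene for 5498 of 10928 probe sets (5449 genes) and several for 1, assigns 1746 to S. pombe and leaves 3683 unnamed. For the 47 genes with several probe sets the brightest was taken. Gene order came from the RefSeq table of assembly R64. Values under 1 were set to 1 before log2. Testing was limited to genes with a mean log2 value above that of 95% of S. pombe probe sets: 5415 genes, 44 of the 45 members among them, with 34 genes removed.

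In limma 3.58.1 under R 4.3.3, 1 model with 6 group means took in all 14 arrays, and eBayes moderated the variances along an intensity trend (4.12 prior and 8 residual degrees of freedom). Contrasts set each altered strain against its own wild type, these changes against each other, and wild type against wild type. P-values are two-sided and Benjamini-Hochberg adjusted over all tested genes within a contrast, and genes under 0.05 were called. Errors are standard errors of the fit unless given as SD. The fit was tested on simulated data.

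Members, classes and lists were chosen with earlier results of these data known, and the roles were grouped after values were seen. Members are named where called, where among the 6 largest changes without overlap (with 1 group fully above background), and as the regulators IME1, IME2 and NDT80; between wild types the 6 smallest adjusted p are named. Other members serve as examples of a role, chosen after their values were seen.

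Across genes, which are not independent replicates, deviations from the group means correlated between same-numbered arrays of the JHD2 experiment at 0.64, 0.62 and 0.69. The numbers were therefore taken to pair those arrays, and pair values are given as a description. In the SET1 experiment the same correlation was 0.73. The main fit holds no pair term, so its standard errors and p-values are those of unpaired groups. The replicate block is an alternative fit.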

Additional observations from a re-analysis of the deposited data

How the results depend on the processing

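With 2 or 3 arrays a group and signals near the background, calls depended on the settings. Of 326 alternative values for counts and medians, 285 counted as unchanged. For a median this meant a shift smaller than the within-group SD of the members' median signal per array on the log2 scale. A count had to stay within 1.5 times the main count, and a 0 that stayed 0 was included, as in all 28 alternatives for the jhd2 deletion. Of 922 for named members 821 kept direction and call, 76 lost a call, 17 gained one and 8 changed sign. Only a called result can lose a call, and many of the 922 belong to results without one. Many could not change sign either. Other thresholds, the replicate block, a fit without the trend and leaving out arrays of other experiments leave a log2 change as it is. In the set1 deletion SPO74 lost its call in 14 and LOH1 in 13 of 28 alternatives. The causes were not tested.

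The 2 calls in the set1 deletion became 0 with quantile normalization, with array weights, with jhd2 deletion replicates 1 and 2 left out, at an adjusted p under 0.01 and with the experiment's arrays alone, and ranged from 0 to 3 when single arrays were left out. Its median, 0.40, lay between 0.21 and 0.54. Alternatives such as the replicate block, or leaving out arrays of the other experiments, can hardly move it. The jhd2 deletion median was -0.058 with quantile normalization, 0.24 without deletion replicates 1 and 2 (a single deletion array, assumed to vary like the other groups) and 0.06 to 0.15 without single arrays. The 0 calls under overexpression became 1 (quantile normalization), 3 (array weights), 2 (JHD2-experiment replicate 3 arrays left out) and 2 (the experiment alone), and the median was 0.29 with quantile normalization and -0.29 to 0.11 without single arrays. For the set1 deletion against overexpression, the 0 calls became 1 (quantile normalization), 2 (log2 of the value plus 32), 2 (no intensity trend) and 3 (without the replicate 3 arrays). Between the overexpression and SET1-experiment wild types the 4 calls became 1 at an adjusted p under 0.01 and 1 to 5 without single arrays. Against the JHD2-experiment wild type the 6 became 11 (no trend), 17 (array weights), 3 (under 0.01) and 13 (under 0.10). Without single arrays they became 3 to 8, and 3 was reached without overexpression wild type replicate 1. The share of all tested genes called under each setting is not given here. The counts of this paragraph, and those with the replicate block below, are therefore not set against a background.

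With the replicate block, calls were 3 under overexpression, 3 for the set1 deletion against overexpression, and 7 and 14 between the overexpression wild type and those of the SET1 and JHD2 experiments; the block changed no other count of calls. Deviations of same-numbered arrays correlated at 0.73 for SET1 and -0.14 for overexpression, and crossing the block in the latter, chosen after seeing the data, gave 3 calls.

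Signs changed, all for values with no call, for IME2 in the set1 deletion (-0.58 to 0.013 without single arrays, positive without wild type replicate 1), LOH1 and SPR3 in the jhd2 deletion (-0.069 and -0.13, quantile normalization), NDT80 there (0.014, array weights) and IME1 there (0.036 with median centring, -0.41 to 0.17 without single arrays). SPR28 in the set1 deletion was called without the trend (adjusted p 0.0189 in limma) and SPO75 without both replicate 3 arrays (0.0372). Leaving out 2 jhd2 deletion arrays or the replicate 3 arrays was chosen after seeing the data. The planned search of promoters for motifs was not run.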
